A study of Mus musculus with 96 samples.

Results

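The SLC25 genes encode the carriers that move metabolites across the inner mitochondrial membrane, and 34 of those under an Slc25a symbol were measurable in these livers. They were taken as the rows of the deposited expression table whose symbol begins with Slc25a and whose mean was at least 1 FPKM, the unit of fragments scaled by gene length and library depth, over the 96 libraries. The table held 41 such symbols among 13094 rows, and 9901 rows of any gene reached the same mean. The study deleted Rbbp5, which encodes a core subunit of the enzymes that methylate lysine 4 of histone H3, in hepatocytes. The controls, Rbbp5 (flox/flox); Alb-CRE (-/-), are called Flox, and their littermates with the deletion, Rbbp5 (flox/flox); Alb-CRE (+/-), are called LKO. All mice were C57BL/6J males aged 3 to 4 months that carried the floxed alleles and fed freely. They were entrained to a cycle of 12 h light and 12 h dark for 2 weeks, and constant darkness began 24 h before the first sampling. Whole liver was collected every 2 h from circadian time (CT) 0 to CT46, from 2 mice per genotype and time, which gave 48 libraries per genotype. The albumin promoter drives Cre in hepatocytes, so the other liver cells keep an intact Rbbp5, and no source used here names the floxed segment.

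Each carrier is a small protein of the inner membrane that exchanges or imports a defined cargo, such as ADP for ATP, phosphate, citrate or ornithine. In liver the carriers connect the cytosol with oxidative phosphorylation, the urea cycle, the malate-aspartate shuttle, fatty acid oxidation and the export of citrate for lipid synthesis. A few relatives sit elsewhere, SLC25A17 in peroxisomes and SLC25A46 in the outer mitochondrial membrane.

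Rbbp5 averaged 3.27 ± 0.586 FPKM in Flox and 2.46 ± 0.774 FPKM in LKO (SD, n = 48 each), a log2 difference of -0.32 (SE 0.05, limma adjusted p = 2.43e-07). At CT42 to CT46 it went against the labels, at 2.71 ± 0.718 FPKM in Flox (1.55 to 3.56) and 3.79 ± 0.399 FPKM (3.13 to 4.23) in the libraries labelled LKO (SD, n = 6 each), so a direction drawn there is one between libraries as labelled. Total FPKM per library ran from 313376 to 498760, and the relative depth read from steps between low values ran from 0.721 to 1.64, with means of 0.973 ± 0.159 in Flox and 1.05 ± 0.167 in LKO (SD, n = 48 each). Several libraries stood apart. In the 6 libraries labelled LKO at CT42 to CT46 the summed level of 9 alveolar macrophage markers was 5238 to 10610 FPKM, against at most 115.6 FPKM in every other library, and none of the 9 was at 0 there. The summed level of 7 hepatocyte markers in these libraries averaged 20620 ± 3535 FPKM, against 34160 ± 5727 FPKM in Flox at the same times (SD, n = 6 each). In 2 further libraries, LKO CT4 with letter A and Flox CT12 with letter B, the sum of 10 skeletal muscle genes was 1877 and 138.6 FPKM, against at most 15.06 FPKM elsewhere. The muscle list was chosen after the data had been seen. The sum of 5 cholangiocyte markers, of which Spp1 made up most, averaged 22.6 FPKM (14.4 to 55.9) in Flox and 96.5 FPKM (25.7 to 500.0) in LKO at CT0 to CT22, then 29.9 and 75.1 FPKM up to CT40, and 26.4 and 428 FPKM at CT42 to CT46. At CT42 to CT46 the 5 were uneven. Krt19 averaged 0.877 FPKM in Flox and 152 FPKM in the libraries labelled LKO, and Epcam 0.408 and 17.4 FPKM. Krt7 averaged 0.308 and 1.47 FPKM there, and Sox9 2.20 and 3.68 FPKM, so the sum is not read as 1 cell type. None of the 5 was at 0 in any library, and the part of cells with these markers in the genotype differences below was not tested. Rn45s, the ribosomal RNA precursor, averaged 1407 FPKM at CT0 to CT22 in Flox and 4500 FPKM in LKO, whereas at CT42 to CT46 it averaged 7049 FPKM in Flox and 3258 FPKM in LKO. The counts of genotype calls and several named results are also given without the libraries that held macrophage or muscle transcripts. The 24 h rhythms of single carriers in LKO, and the differences of single genes that work with the carriers, are given only with them.

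The most abundant carrier transcript was Slc25a5, an ADP/ATP exchanger, at 245 ± 42 FPKM in Flox (SD, n = 48). Slc25a39, needed for glutathione import, followed at 162 ± 24.7 FPKM, and Slc25a47, a carrier made mainly in liver, stood at 128 ± 54.6 FPKM. The citrate carrier Slc25a1 and the phosphate carrier Slc25a3 came next at 111 ± 17.3 and 105 ± 12.3 FPKM. These 2 did not differ beyond their spread, and the ranges of Slc25a47 and Slc25a1 overlapped too. Over all 34 carriers the summed level was 1278 ± 143 FPKM in Flox and 1153 ± 197 FPKM in LKO (SD, n = 48 each).

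The lower end of the order held Slc25a48 at a mean of 1.33 FPKM and Slc25a29 at 1.35 FPKM over all libraries, the 2 carriers just inside the limit of 1 FPKM. Slc25a48 reached it through Flox, at 1.79 FPKM against 0.879 FPKM in LKO. Just outside lay Slc25a40 at 0.893 FPKM and Slc25a24 at 0.793 FPKM, followed by Slc25a35, Slc25a36, Slc25a14, Slc25a27 and Slc25a2 down to 0.127 FPKM. Slc25a24 averaged 0.203 FPKM in Flox and 1.38 FPKM in LKO, and Slc25a36 averaged 0.240 and 1.17 FPKM, so both were kept out by their low level in Flox. These 7 are not counted below. On mm10, 12 of the 34 carrier genes overlap a gene on the opposite strand, among them Slc25a23, Slc25a10, Slc25a11, Slc25a16 and Slc25a25. The strand setting of the counting is unknown, so reads of such neighbours could not be separated here.

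Several carriers differed in level from a close relative. The aspartate/glutamate carrier of liver, citrin (Slc25a13), stood at 36.04 FPKM in Flox and its relative Slc25a12 at 2.49 FPKM. The ornithine carrier Slc25a15 stood at 62.0 FPKM and Slc25a2 at 0.114 FPKM. The mitochondrial iron carriers Slc25a37 and Slc25a28 lay together at 9.34 ± 2.63 and 9.50 ± 1.48 FPKM (SD, n = 48), a gap smaller than their spread. The pyrimidine nucleotide carriers Slc25a33 and Slc25a36 stood at 6.50 and 0.240 FPKM, and the glutathione-linked pair Slc25a39 and Slc25a40 at 162 and 0.762 FPKM.

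**Figure D1:**
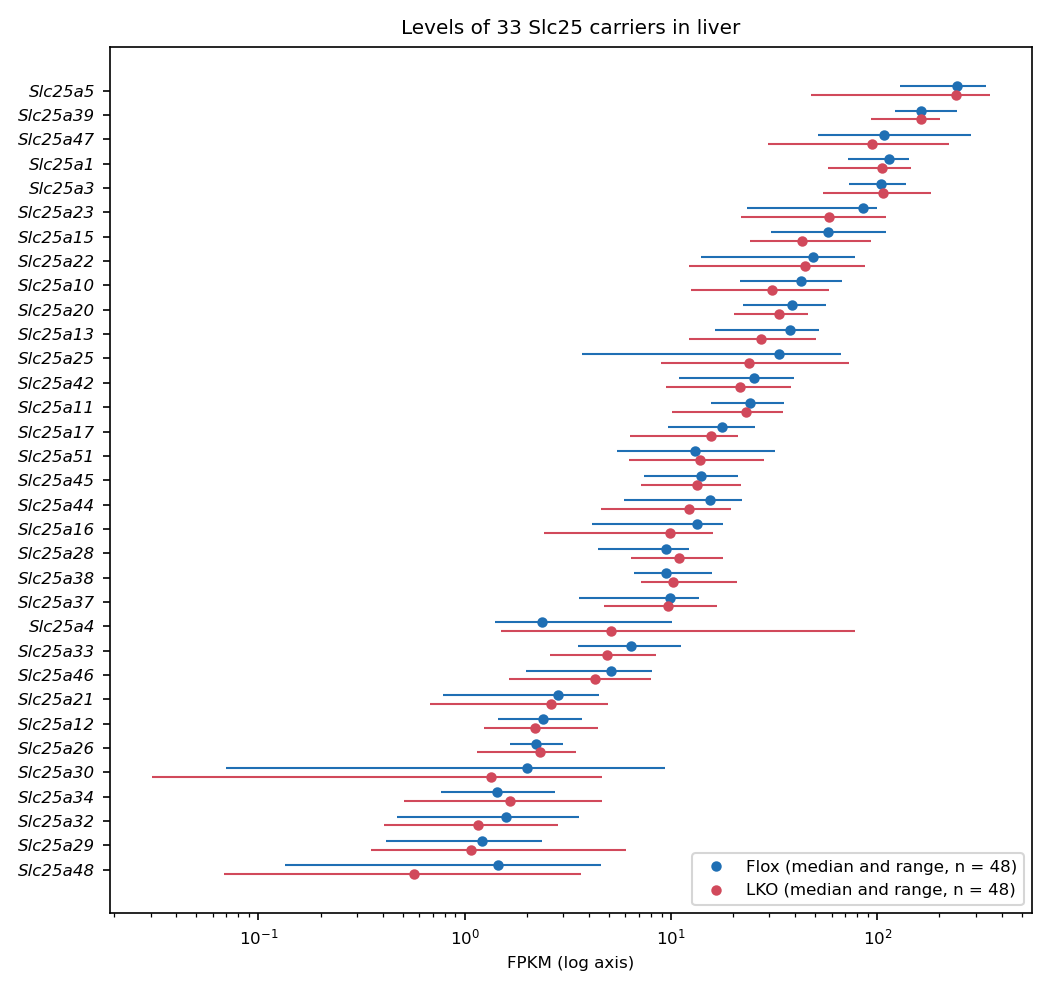
Level of each of 33 Slc25 carriers on a log axis of FPKM, with a point at the median and a line over the range of the 48 libraries of each genotype. Slc25a5, with means of 245 and 224 FPKM, is at the top, Slc25a48 at the bottom, and the Flox and LKO ranges overlap for every carrier shown, with Slc25a4 reaching 78.3 FPKM in 1 LKO library.

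The comparison of LKO with Flox asks how the loss of RBBP5 from hepatocytes altered the carriers. Over all 24 times 3 carriers were higher in LKO and 16 were lower, while 15 did not pass the threshold of an adjusted p of 0.05. Among all 9901 genes 58.5% were called, 39.4% higher and 19.1% lower. The median log2 difference was -0.13 over the 34 carriers and 0.07 over all genes. Scaling the libraries by the median ratio left 2 carriers higher and 20 lower, and quantile normalization 2 and 18, while the share of higher genes among all calls went from 67.3% to 52.0% and 45%. Of all genes 33% were higher and 30.5% lower under the median ratio, and 29.2% and 35.7% under quantile normalization. Without the 6 libraries labelled LKO at CT42 to CT46, 4 carriers were higher and 18 lower, against 31.7% and 30% of all genes. With Rn45s as a covariate 3 were higher and 11 lower, against 50.1% and 13.3%, and the calls of Slc25a5 (-0.04), Slc25a17 (-0.11), Slc25a32 (-0.10), Slc25a44 (-0.11) and Slc25a46 (-0.10) were lost. In bulk liver, fewer cells of a type and less RNA per cell cannot be told apart.

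**Figure D2:**
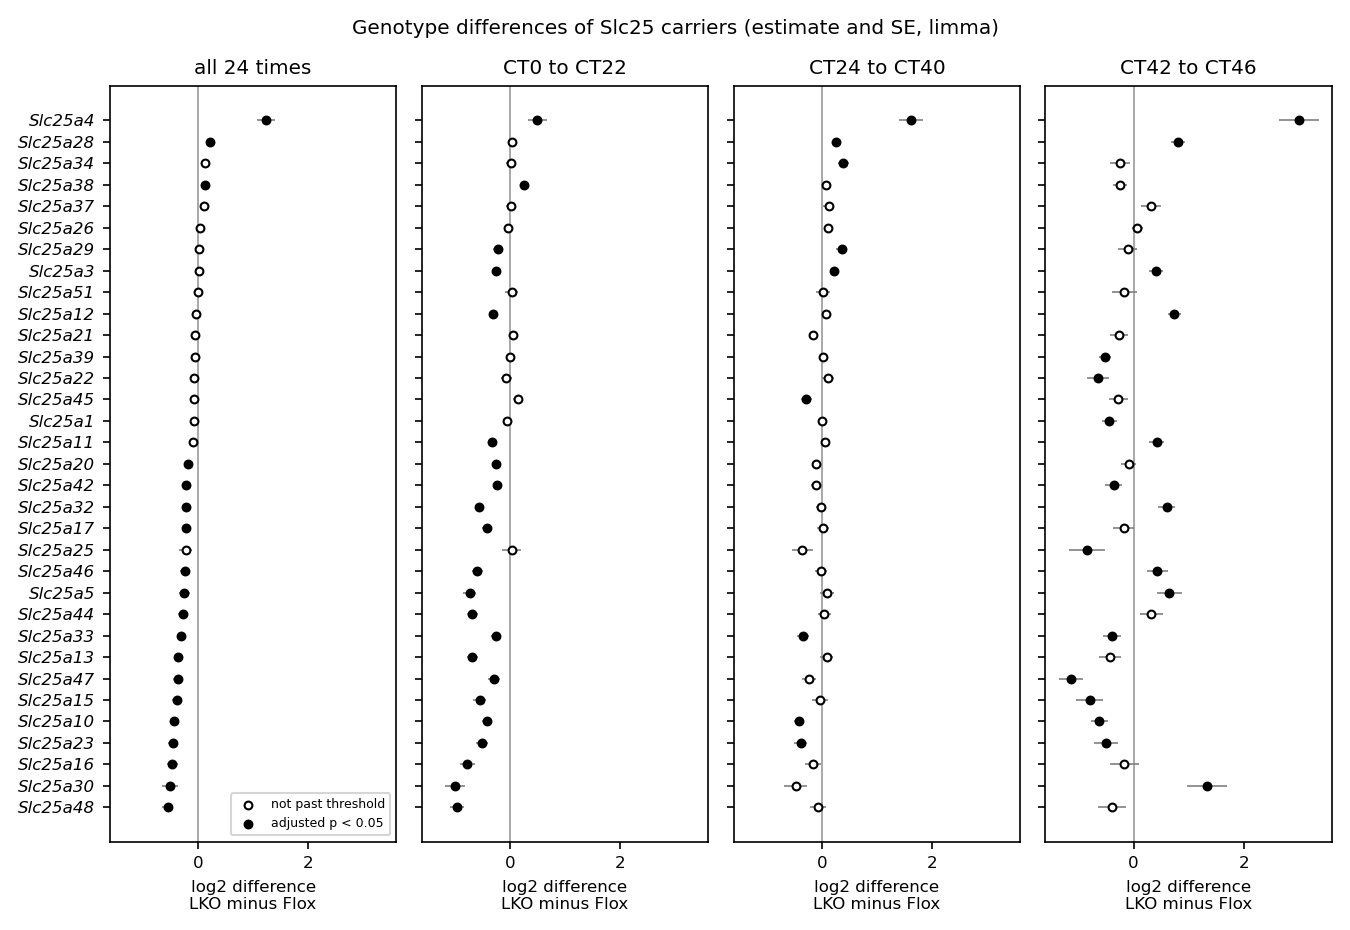
Log2 difference LKO minus Flox with its standard error from limma for 33 carriers over all times and in 3 windows, with filled points past an adjusted p of 0.05. Slc25a4 lies at 1.23 over all times and at 3.00 at CT42 to CT46, and most other carriers lie left of 0 at CT0 to CT22.

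The counts by cargo are small and are read against the 39.4% of all genes that were higher and 19.1% that were lower. The median log2 difference of all genes was 0.07. By cargo, the 13 carriers of adenine nucleotides, phosphate and cofactors held 1 higher and 7 lower member, with a median log2 difference of -0.21. Of the 7 amino acid and urea cycle carriers 1 was higher and 3 were lower, with a median of -0.07. Of the 5 carboxylate and acylcarnitine carriers none was higher and 2 were lower, with a median of -0.09. Of the 3 iron and glutathione carriers 1 was higher and none lower, with a median of 0.10. The 1 relative of the uncoupling proteins was lower, as were 3 of the 5 members in the outer membrane or without an assigned cargo.

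Slc25a4 (ENSMUSG00000031633.4, mm10 chromosome 8, 46206797 to 46211284, minus strand), the ADP/ATP carrier that dominates in muscle and heart, had the largest difference of the 34. It ran from 1.41 to 10.1 FPKM in Flox, with a median of 2.36 FPKM. In LKO it ran from 1.495 to 78.33 FPKM, with a median of 5.11 FPKM. The ranges overlapped, and LKO was higher at 21 of 24 times. The log2 difference was 1.23 (SE 0.16, limma adjusted p = 1.14e-09).

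The Slc25a4 difference was not even over the 48 h. Flox averaged 2.75, 2.32 and 2.61 FPKM at CT0 to CT22, CT24 to CT40 and CT42 to CT46, and LKO averaged 6.85, 10.4 and 28.4 FPKM. Without the 2 libraries with muscle transcripts, described next, the first window averaged 2.44 ± 0.503 FPKM in Flox and 3.74 ± 1.86 FPKM in LKO (SD, n = 23 each). At CT42 to CT46 the 6 libraries labelled LKO lay between 16.2 and 38.1 FPKM and the 6 Flox libraries between 1.62 and 3.48 FPKM, without overlap. Log2 differences in the 3 windows were 0.50, 1.62 and 3.00 (SE 0.18, 0.21 and 0.36), and the first was 0.37 without the 2 libraries (limma adjusted p = 0.00892).

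The highest value of each genotype came from a library with muscle transcripts, 78.3 FPKM in LKO CT4 with letter A, where Acta1 (skeletal muscle actin) reached 540 FPKM, and 10.1 FPKM in Flox CT12 with letter B. The other LKO library of CT4 held 1.97 FPKM of Slc25a4. Without both libraries the log2 difference was 1.19 (limma adjusted p = 6.88e-11), and without these and the 6 libraries labelled LKO at CT42 to CT46 it was 0.92 (limma adjusted p = 6.26e-09). In those 6 libraries the muscle sum was 7.23 to 15.06 FPKM, against 0.395 to 0.772 FPKM in Flox at the same times. Within them Acta1 held 4.65 to 10.5 FPKM and Ckm (muscle creatine kinase) 0.0664 to 0.468 FPKM. Tnni2, also on the muscle list, held 1.61 to 3.03 FPKM in these 6 libraries, against at most 0.214 FPKM in Flox at the same times. Tnnc2, Myl1, Pvalb and Mb were at 0 in at least 1 of the 6. The part of other cell types in the Slc25a4 level at CT42 to CT46 was not tested.

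Slc25a5 (ENSMUSG00000016319.3, mm10 chromosome X, 36795651 to 36798807, plus strand), the ADP/ATP carrier of most tissues, went the other way. It ran from 129 to 334 FPKM in Flox (median 244) and from 47.8 to 352 FPKM in LKO (median 241), so the Flox range lay inside that of LKO. Its log2 difference over all times was -0.25 (SE 0.10, limma adjusted p = 0.0299), and without the 2 libraries with muscle transcripts the adjusted p was 0.0565. With Rn45s as a covariate the difference was -0.04 (limma adjusted p = 0.638). At CT0 to CT22 the log2 difference was -0.73 (SE 0.12), and at CT24 to CT40 it was 0.10 (SE 0.13) and not called. At CT42 to CT46, where macrophage markers were high, it was 0.65 (SE 0.23). Of the 50-base words of its transcript 46.6% also occur in pseudogene transcripts such as Gm5560 and Gm5529, so its level is uncertain, while the share was at most 8.07% for every other carrier. Slc25a4 made up 1.05% ± 0.419 of the summed Slc25a4 and Slc25a5 level in Flox and 4.46% ± 5.80 in LKO (SD, n = 48 each). The medians were 0.96% and 3.55%. The highest LKO share, 40.54%, was that of LKO CT4 with letter A, which held muscle transcripts.

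**Figure D3:**
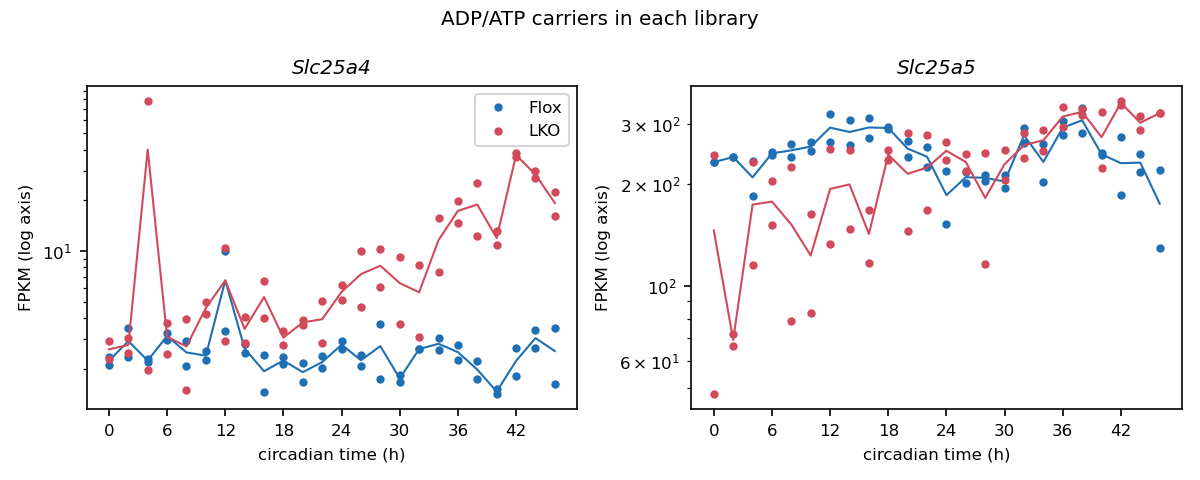
FPKM of the ADP/ATP carriers Slc25a4 and Slc25a5 on log axes against circadian time, with 1 point per library and lines through the mean of the 2 libraries at each time. The LKO points of Slc25a4 lie between 16.2 and 38.1 FPKM at CT42 to CT46, above all 6 Flox points there, and the Slc25a5 points of LKO reach down to 47.8 FPKM on the first day.

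The 250 bases before the RefSeq start of these 2 genes, which differed in opposite directions over the first day, are shown on GRCm38.p6, in the direction of transcription. Capitals mark the letters CCGGAAG, the core bound by ETS factors, in Slc25a4 (chr8:46211063-46211312, minus strand), and the letters of a GC box read on the opposite strand in Slc25a5 (chrX:36795347-36795596, plus strand). The GENCODE gene Slc25a4 starts within its window.
Slc25a4: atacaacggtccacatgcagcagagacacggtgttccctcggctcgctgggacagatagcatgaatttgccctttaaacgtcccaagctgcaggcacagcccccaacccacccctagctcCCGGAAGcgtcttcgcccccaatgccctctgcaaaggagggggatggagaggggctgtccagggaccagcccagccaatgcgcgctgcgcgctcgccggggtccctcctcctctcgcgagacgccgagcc
Slc25a5: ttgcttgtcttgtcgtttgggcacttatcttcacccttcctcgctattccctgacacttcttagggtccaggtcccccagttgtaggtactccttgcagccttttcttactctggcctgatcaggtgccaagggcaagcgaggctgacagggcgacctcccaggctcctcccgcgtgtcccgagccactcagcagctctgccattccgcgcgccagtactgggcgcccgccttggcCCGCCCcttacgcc
Windows of 300 bases, 250 before and 50 after the start, were held for 27 of the 34 carriers. The GC box GGGCGG occurred in 23 of these 27 (85.2%) and in 38.2% of all 27025 genes with a window, on either strand. The ETS core CCGGAAG occurred in 6 of 27 (22.2%, against 9.93% of genes), in Slc25a3, Slc25a20, Slc25a25, Slc25a17, Slc25a38 and Slc25a4. The E-box CACGTG, read by clock factors, occurred in 4 (14.8%, against 8.09%), in Slc25a1, Slc25a15, Slc25a13 and Slc25a33. The CRE TGACGTCA occurred in Slc25a25 alone (2.03% of genes), and neither the D-box TTATGTAA (1.11% of genes) nor the NRF1 motif (1.07%) occurred in any of the 27 windows. These are matches of letters, with no binding data behind them.

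Slc25a23, a calcium-regulated exchanger of ATP-magnesium for phosphate, was lower in LKO at 23 of 24 times. It ran from 23.4 to 99.1 FPKM in Flox (median 85.0) and from 21.8 to 110 FPKM in LKO (median 58.1), so the ranges overlapped. The log2 difference was -0.46 (SE 0.08, limma adjusted p = 4.88e-07), and it was called in each of the 3 windows, at -0.51, -0.38 and -0.50. In the last window the libraries labelled LKO held macrophage transcripts and a lower sum of hepatocyte markers, and Rbbp5 went against the labels. The part of this in the last difference was not tested. The related Slc25a25 averaged 32.01 ± 12.1 and 27.7 ± 13.6 FPKM (SD, n = 48 each), a log2 difference of -0.22 that was not called (limma adjusted p = 0.107).

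Slc25a16, whose yeast relative serves coenzyme A uptake, ran from 4.13 to 17.8 FPKM in Flox (median 13.3) and from 2.43 to 16.04 FPKM in LKO (median 9.85). It was lower at 19 of 24 times, with a log2 difference of -0.47 (SE 0.10, limma adjusted p = 3.36e-05) and overlapping ranges. At CT24 to CT46 alone the difference was -0.17 and was not called. Smaller log2 differences past the threshold were those of the coenzyme A carrier Slc25a42 (-0.21), the peroxisomal cofactor carrier Slc25a17 (-0.22), the folate and FAD carrier Slc25a32 (-0.21) and Slc25a33 (-0.30). Also in this group, the differences of 3 further carriers did not pass, with Slc25a3 at 0.01, the NAD carrier Slc25a51 at 0.00 and the S-adenosylmethionine carrier Slc25a26 at 0.03.

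Among the amino acid carriers Slc25a15, which exchanges ornithine for citrulline in the urea cycle, had the largest difference. It ran from 30.5 to 110 FPKM in Flox (median 57.9) and from 24.1 to 93.1 FPKM in LKO (median 43.3), and LKO was lower at 17 of 24 times. The log2 difference was -0.39 (SE 0.09, limma adjusted p = 0.000168), and by window it was -0.55 and called at CT0 to CT22, -0.03 and not called at CT24 to CT40, and -0.80 and called at CT42 to CT46. At those last times macrophage markers were high and hepatocyte markers lower in the libraries labelled LKO. Citrin, Slc25a13, was lower at -0.36 (SE 0.08), and Slc25a44, which imports branched-chain amino acids, at -0.28 (SE 0.09). Both differences arose on the first day, each at -0.68 at CT0 to CT22, and neither was called at CT24 to CT40.

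Slc25a38, the glycine carrier that feeds haem synthesis, was the amino acid carrier called higher. It ran from 6.61 to 15.8 FPKM in Flox (median 9.40) and from 7.14 to 20.9 FPKM in LKO (median 10.2), with overlap. The log2 difference was 0.12 (SE 0.05, limma adjusted p = 0.0297), and it was not called under median-ratio scaling (0.05), quantile normalization (0.06) or with Rn45s as a covariate (0.07). The glutamate carrier Slc25a22, the aspartate/glutamate carrier Slc25a12 and the basic amino acid carrier Slc25a29 did not pass over all times, at -0.07, -0.03 and 0.01.

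The dicarboxylate carrier Slc25a10, which exchanges malate or succinate for phosphate, was lower at 22 of 24 times. It ran from 21.5 to 67.3 FPKM in Flox (median 42.7) and from 12.5 to 58.6 FPKM in LKO (median 30.8). The ranges overlapped, and the log2 difference was -0.44 (SE 0.06, limma adjusted p = 8.83e-10). It was called in each window, at -0.42, -0.41 and -0.62, the last where macrophage markers were high and hepatocyte markers lower in the libraries labelled LKO. The carnitine/acylcarnitine carrier Slc25a20, which brings fatty acids to oxidation, was lower at -0.18 (SE 0.05). The citrate carrier Slc25a1 (-0.08), the oxoglutarate/malate carrier Slc25a11 (-0.09) and the oxodicarboxylate carrier Slc25a21 (-0.06) did not pass.

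Slc25a28, mitoferrin 2, ran from 4.40 to 12.2 FPKM in Flox (median 9.46) and from 6.39 to 17.9 FPKM in LKO (median 10.9). LKO was higher at 17 of 24 times despite the overlap, with a log2 difference of 0.21 (SE 0.05, limma adjusted p = 0.000445). At CT0 to CT22 it was 0.03 and not called, at CT24 to CT40 it was 0.26 (SE 0.07, limma adjusted p = 0.00433), and at CT42 to CT46, where macrophage markers were high, 0.81 (SE 0.13). Without the libraries labelled LKO of that last window and those with muscle transcripts it was 0.14 (limma adjusted p = 0.0110). Mitoferrin 1, Slc25a37, and Slc25a39 did not pass, at 0.10 and -0.06.

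Slc25a48 met the limit of 1 FPKM through its level in Flox, so its lower level in LKO is given as a description. It ran from 0.135 to 4.58 FPKM in Flox (median 1.44) and from 0.0680 to 3.64 FPKM in LKO (median 0.566), and LKO was lower at 18 of 24 times. The log2 difference was -0.55 over all times, with -0.96 in the first window and -0.07 in the second, and it is counted among the 16 lower calls above. On the log2(FPKM + 1) scale changes of such low genes are understated.

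Slc25a30, a relative of the uncoupling proteins, ran from 0.0697 to 9.35 FPKM in Flox (median 2.00) and from 0.0304 to 4.64 FPKM in LKO (median 1.34). The log2 difference was -0.51 (SE 0.15, limma adjusted p = 0.00323). By window it was -1 at CT0 to CT22, -0.47 and not called at CT24 to CT40 (limma adjusted p = 0.0754), and 1.33 at CT42 to CT46. The positive value was confined to the last window, where the libraries labelled LKO held macrophage transcripts. Without those 6 libraries the change between days was 0.53 and not called (limma adjusted p = 0.109). Of the remaining carriers Slc25a47 was lower at -0.37 (SE 0.09) and the outer membrane protein Slc25a46, which takes part in the upkeep of mitochondrial shape, at -0.24 (SE 0.08). Slc25a45 and Slc25a34 did not pass, at -0.07 and 0.12.

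The 3 windows gave different pictures. At CT0 to CT22, 20 carriers were lower in LKO and 3 higher (among them Slc25a4 and Slc25a38), against 43.8% of all genes lower and 25.1% higher. At CT24 to CT40, 4 were lower (Slc25a10, Slc25a23, Slc25a33 and Slc25a45) and 5 higher (Slc25a3, Slc25a4, Slc25a28, Slc25a29 and Slc25a34), against 5.21% and 29.9%. At CT42 to CT46, 10 were lower and 9 higher, against 10.6% and 58.4%. The median log2 differences of the carriers were -0.25, 0.01 and -0.17, and those of all genes -0.09, 0.11 and 0.49. The summed carrier level was 1320 ± 111 FPKM in Flox and 1091 ± 219 FPKM in LKO in the first window (SD, n = 24 each), 1265 ± 143 and 1262 ± 146 FPKM in the second (n = 18 each) and 1149 ± 190 and 1073 ± 35.4 FPKM in the last (n = 6 each).

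Whether the genotype difference changed from the first day to the second was tested directly. It moved up for 15 carriers and down for 3, against 59.5% and 9.65% of all genes (69.2% in either direction), and the median change was 0.19 for the carriers and 0.34 for all genes. After median-ratio scaling the median of all genes was 0.02, and 8 carriers moved up and 15 down, against 32.2% and 29.5% of all genes. After quantile normalization the median was -0.01, and 10 carriers moved each way, against 28.9% of all genes up and 30.7% down. The direction is therefore relative to the scaling for many carriers. Slc25a5 moved by 0.97 (SE 0.17, limma adjusted p = 1.38e-06). It averaged 258 FPKM in Flox and 171 FPKM in LKO at CT0 to CT22. On the second day the means were 240 and 260 FPKM at CT24 to CT40, and 212 and 324 FPKM at CT42 to CT46. Slc25a3, which supplies phosphate to ATP synthase, moved by 0.52 (SE 0.09, limma adjusted p = 1.43e-06). Its means in Flox and LKO were 107 and 91.0 FPKM on the first day. They were 104 and 123 FPKM at CT24 to CT40, and 100 and 132 FPKM at CT42 to CT46. Slc25a12 moved by 0.55 (SE 0.10, limma adjusted p = 2.34e-06) and Slc25a32 by 0.70 (SE 0.12, limma adjusted p = 2.48e-06). All 4 changes were above 0.34, the median over all genes. Under median-ratio scaling Slc25a3 moved by 0.11 (limma adjusted p = 0.108), and under quantile normalization Slc25a12 moved by 0.15 (limma adjusted p = 0.0595), so these calls were lost, while Slc25a5 and Slc25a32 kept theirs under both. Among the 3 that moved down were Slc25a38 (-0.25) and Slc25a45 (-0.42).

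The series concerns rhythms of about 12 h in liver, and the carriers were fitted with 24 h and 12 h terms in each genotype. A 24 h rhythm was called for 13 carriers in Flox and 19 in LKO, 8 of them in both, against 27.3% and 49.5% of all genes. Their fitted amplitudes, from the midline to the peak on the log2 scale, reached 0.54 in Flox and 0.67 in LKO, and the medians over all called genes were 0.25 and 0.27. The fitted peak fell between CT6 and CT18 for 9 of 13 in Flox and 17 of 19 in LKO, against 57.6% and 57.2% of all called genes.

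Slc25a47 had the largest 24 h amplitude in both genotypes. In Flox the mean of the 2 libraries was lowest at CT0, at 61.9 FPKM, and highest at CT8, at 253 FPKM, and in LKO it was lowest at CT0, at 34.7 FPKM, and highest at CT30, at 173 FPKM. The fitted peaks were CT10.8 and CT9.0, with amplitudes of 0.54 (limma adjusted p = 1.39e-05) and 0.67 (limma adjusted p = 5.74e-08). The difference of the 24 h terms between genotypes was not called (limma adjusted p = 0.159). The 250 bases before its RefSeq start, shown because its rhythm is the strongest of the carriers, held none of the 6 motifs and lie inside the longer GENCODE gene (chr12:108850879-108851128, plus strand).
Slc25a47: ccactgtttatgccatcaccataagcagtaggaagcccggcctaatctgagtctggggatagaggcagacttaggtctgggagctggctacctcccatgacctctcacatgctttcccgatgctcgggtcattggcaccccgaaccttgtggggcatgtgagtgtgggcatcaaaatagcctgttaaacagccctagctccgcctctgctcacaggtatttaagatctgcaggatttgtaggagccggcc

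The neighbour of Slc25a47 on chromosome 12 is Slc25a29 (108825873 to 108835883, minus strand), whose GENCODE start faces that of Slc25a47 (108836046 to 108856815, plus strand). Slc25a29 averaged 1.28 ± 0.446 FPKM in Flox and 1.41 ± 1.07 FPKM in LKO (SD, n = 48 each). In LKO its highest time was CT36, at 4.18 FPKM, and its 24 h amplitude was 0.40 with a peak at CT13.2 (limma adjusted p = 2.54e-06). No LKO library of CT0 to CT22 exceeded 1.895 FPKM, while those of CT24 to CT40 reached 6.055 FPKM, so the rise was larger on the second day. The rhythm fit pools both days, and its return at the same size was not tested. In Flox the highest time was CT14, at 2.27 FPKM, and the rhythm was not called (amplitude 0.18, limma adjusted p = 0.0624). The difference between genotypes was not called either (limma adjusted p = 0.0548).

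Slc25a11, which exchanges oxoglutarate for malate, was rhythmic in both genotypes. Its amplitude was 0.26 in Flox, with a peak at CT11.5 (limma adjusted p = 0.000909), and 0.27 in LKO, with a peak at CT14.6 (limma adjusted p = 0.000245). The dicarboxylate carrier Slc25a10 peaked at CT9.5 in Flox, with an amplitude of 0.29 (limma adjusted p = 0.00664), and its call was lost under median-ratio scaling (limma adjusted p = 0.0667) and quantile normalization (limma adjusted p = 0.0595). Slc25a22, the glutamate carrier, peaked at CT5.3 in Flox (amplitude 0.30) and at CT6.8 in LKO (amplitude 0.46, limma adjusted p = 1.34e-05). Slc25a28 peaked at CT9.3 in Flox, with an amplitude of 0.20 (limma adjusted p = 0.00818). Called in Flox and not in LKO were 2 carriers that peaked late in the subjective night, Slc25a38 at CT21.1 (amplitude 0.21, limma adjusted p = 0.00365) and Slc25a45 at CT19.8 (amplitude 0.24, limma adjusted p = 0.00822). Their differences between genotypes were not called (limma adjusted p = 0.0592 and 0.107).

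**Figure D4:**
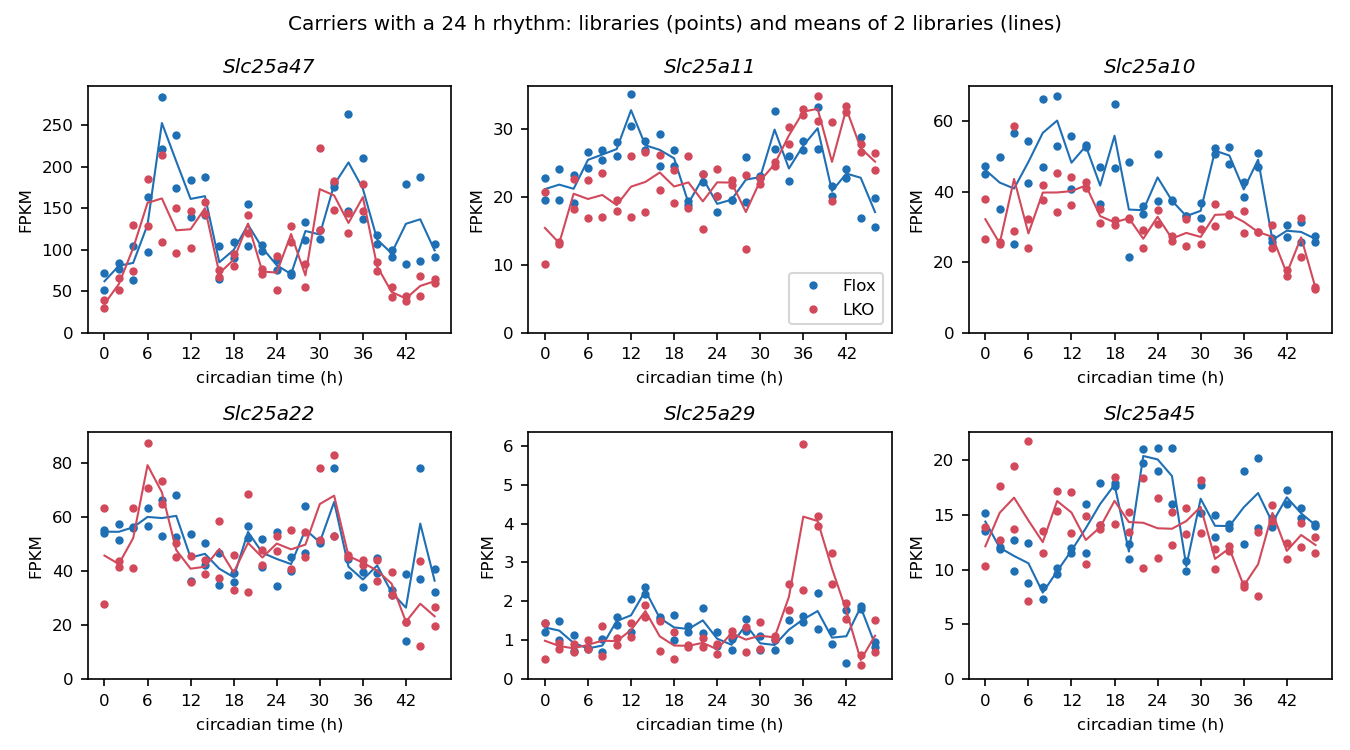
FPKM of 6 carriers with a called 24 h rhythm against circadian time, with 1 point per library and lines through the mean of 2 libraries. Slc25a47 is highest at CT8 in Flox, at 253 FPKM, and at CT30 in LKO, at 173 FPKM, and Slc25a29 is highest at CT36 in LKO, at 4.18 FPKM.

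Other carriers with a 24 h rhythm in Flox included Slc25a48 (peak CT6.8, amplitude 0.38), Slc25a16 (CT10.6, 0.29), Slc25a13 (CT11.1, 0.27), Slc25a32 (CT9.1, 0.26) and Slc25a42 (CT3.3, 0.23). In LKO they included Slc25a51, Slc25a5, Slc25a13, Slc25a42, Slc25a21, Slc25a10, Slc25a23, Slc25a37, Slc25a20, Slc25a3, Slc25a28, Slc25a1, Slc25a39 and Slc25a26, with amplitudes from 0.12 to 0.37. A test of the difference in 24 h rhythm called 1 carrier, Slc25a51, against 19.9% of all genes. Its amplitude was 0.19 in Flox, where it peaked at CT17.7, and 0.37 in LKO, where it peaked at CT13.0, and the difference passed narrowly (limma adjusted p = 0.0470). It did not pass when the libraries labelled LKO at CT42 to CT46 were left out, though the amplitude difference of 0.18 was close to the 0.19 of all libraries (limma adjusted p = 0.270), or when the 2 libraries with muscle transcripts were (0.17, limma adjusted p = 0.0709).

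**Figure D5:**
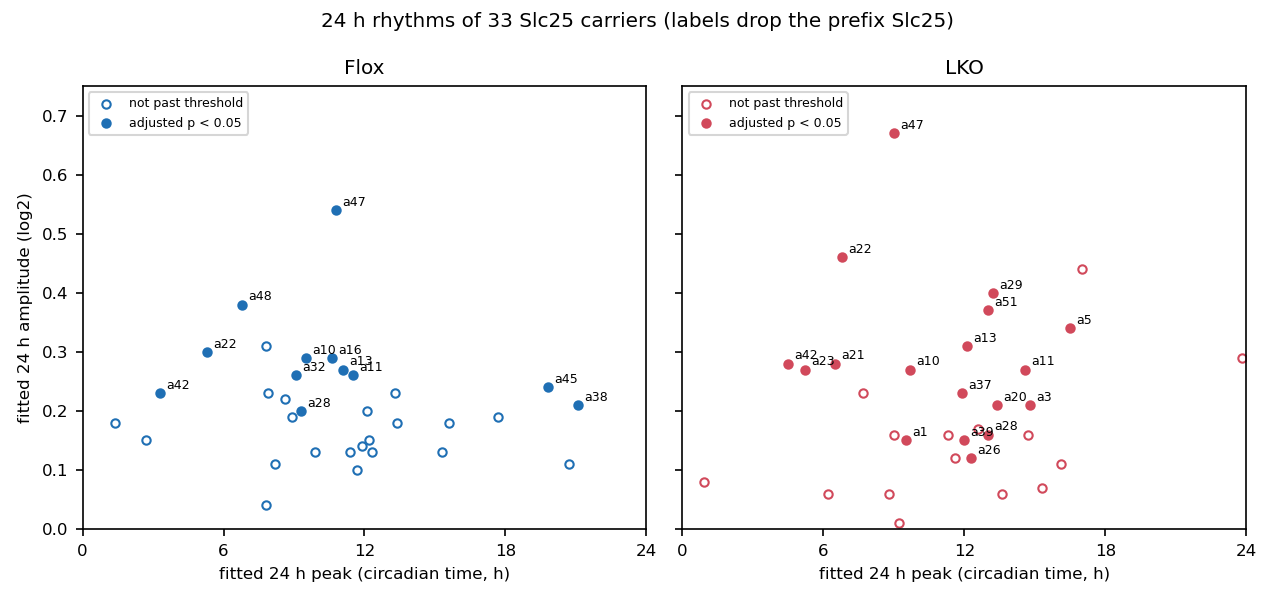
Fitted 24 h amplitude on the log2 scale against fitted peak time for 33 carriers in Flox and LKO, with filled, labelled points past an adjusted p of 0.05. Slc25a47 is highest in both panels, at 0.54 and 0.67, and most filled points of LKO lie between CT6 and CT18.

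A 12 h rhythm was called for 1 carrier in Flox and 2 in LKO, against 1.78% and 9.42% of all genes. In Flox it was Slc25a47, with an amplitude of 0.37 and a first peak at CT8.7 (limma adjusted p = 0.0341), and in LKO its amplitude was 0.21 and was not called (limma adjusted p = 0.262). The Flox call was lost when the libraries of any 1 replicate letter were left out, also for letter C, which only 4 libraries carry. In LKO the 2 were Slc25a38, with an amplitude of 0.21 and a first peak at CT2.4 (limma adjusted p = 0.0183), and Slc25a29, with 0.25 and CT1.6 (limma adjusted p = 0.0239). Neither was called when the libraries labelled LKO at CT42 to CT46 were left out, with amplitudes of 0.20 and 0.26 that stayed as large (limma adjusted p = 0.276 and 0.240). The difference of the 12 h rhythm between genotypes was called by limma for 0 carriers and for 0% of all genes, while 3 carriers and 25.8% of all genes had an unadjusted p under 0.05. The smallest values were those of Slc25a34, with amplitudes of 0.09 in Flox and 0.21 in LKO (limma adjusted p = 0.131), and Slc25a16, with 0.17 and 0.19 (limma adjusted p = 0.162).

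Genes that work with the carriers were counted over all 24 times, and are read against the 39.4% of all genes that were higher and 19.1% that were lower. Carriers reach the inner membrane through the TOM and TIM22 import machinery, of which 7 of 15 tested genes were higher in LKO and 1 lower, with a median log2 difference of 0.14, a share of higher genes near that of all genes. Tomm7 averaged 17.8 FPKM in Flox and 24.2 FPKM in LKO (log2 difference 0.43, SE 0.07), Tomm22 32.04 and 38.9 FPKM (0.26, SE 0.05), and the carrier receptor Tomm70a was lower at 14.6 and 10.3 FPKM (-0.48, SE 0.09). Of 22 enzymes that use carrier cargo 2 were higher and 14 lower, with a median of -0.25. Oat, ornithine aminotransferase, averaged 270 ± 78.7 FPKM in Flox and 154 ± 104 FPKM in LKO (SD, n = 48 each), a log2 difference of -1.08 (SE 0.13, limma adjusted p = 7.54e-11). Cpt2, which takes over acylcarnitine inside mitochondria, was lower at -0.38 (SE 0.05). Pck2, mitochondrial phosphoenolpyruvate carboxykinase, averaged 0.841 FPKM in Flox and 1.58 FPKM in LKO, so it met the limit of 1 FPKM through LKO. Its difference of 0.45 (SE 0.05) is given as a description, and it is counted among the 2 higher enzymes.

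Of 20 mitochondrial transporters without an Slc25a symbol 8 were higher and 8 lower, with a median of -0.02. The higher share was again near the 39.4% of all genes. Ucp2, Mtch1 and Mtch2 among them are relatives of the carriers. Ucp2 had the largest difference of the 20, at 1.11 (SE 0.19). Over the 3 windows it was 0.44, 0.61 and 5.27, the last where the libraries labelled LKO held macrophage transcripts. Abcb10, an inner membrane transporter of the haem pathway, was lower at -0.36 (SE 0.04), while the outer membrane channel Vdac2 was higher at 0.37 (SE 0.06). Sfxn3, a sideroflexin, averaged 0.429 FPKM in Flox and 2.84 FPKM in LKO, so it met the limit of 1 FPKM through LKO. Its difference of 0.91 (SE 0.13) is given as a description, and it is counted among the 8 higher. Vdac2 and Sfxn3 differed by 1.37 and 3.47 at CT42 to CT46, where the libraries labelled LKO held macrophage transcripts, and by 0.12 and 0.30 at CT0 to CT22. Of 11 regulators of mitochondrial genes 4 were higher and 3 lower, with a median of 0.05. Ppara, the fatty acid receptor that drives oxidation genes, averaged 22.6 FPKM in Flox and 14.2 FPKM in LKO (log2 difference -0.64, SE 0.10). Gabpb1, a partner of an ETS factor, and Nfe2l2, the oxidant-responsive factor, were higher at 0.37 (SE 0.04) and 0.57 (SE 0.10). Over the 3 windows Gabpb1 differed by 0.33, 0.31 and 0.71, and Nfe2l2 by 0.19, 0.60 and 2.04, so both were highest at CT42 to CT46. With the libraries labelled LKO at CT42 to CT46 left out, when 31.7% of all genes were higher and 30% lower, the counts higher and lower were 10 and 1 for import, 1 and 13 for enzymes, 7 and 8 for other transporters and 4 and 4 for regulators.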

How the data were processed

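RNA of 96 mouse livers was sequenced from a stranded poly(A) kit, per the labels' protocols. The authors deposited 1 table of FPKM values per gene and library. FPKM as the unit follows from the values and from Cufflinks in the submitters' processing notes, which also name FastQC, Trimmomatic, HISAT2 and mm10, and no source used here gives versions or the strand setting of the counting. Absolute depth is unknown, so no counting intervals are given. Of the 13094 rows 569 held a 0 in at least 1 library.

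The 9901 rows with a mean of at least 1 FPKM were fitted as log2(FPKM + 1) in limma 3.58.1 (R 4.3.3) with trended, robust moderation of variances, two-sided tests and Benjamini-Hochberg adjustment over all rows at 0.05. The genotype model held a factor of the 24 times and a genotype term, then a term for the second day (CT24 to CT46) or for each window. The rhythm model held 24 h and 12 h cosine and sine terms per genotype, tested by F. The fits were tested on simulated data. The members, gene lists and windows were chosen with earlier results of these data known. The muscle list, the depth covariate, the window model and the settings without the 2 libraries with muscle transcripts were chosen after seeing the data.

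Carriers given in full are those past the threshold with the 6 largest differences in each direction, the 6 (Flox) or 4 (LKO) smallest 24 h p-values, up to 4 for the 12 h rhythm, and the 4 smallest that pass, or 2 if none does, for each other test, with 3 genes of each companion list. Ucp2 is given in addition to the 3 of its list. Samples with the same letter and time were checked for pairing: over 24 pairs their deviations correlated between -0.40 and 0.34 (median 0.03), with 8 pairs above 0.1, so the letters were not taken as pairs. Positions are from GENCODE M21 and promoter windows from RefSeq on GRCm38.p6. Gene names were those of the table. The values of 1 carrier enter the counts and medians but are not reported here.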

Additional observations from a re-analysis of the deposited data

Results flagged for a closer look

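The LKO minus Flox log2 difference of the carriers below changed from the first day to the second past the threshold in limma. It moved up by 1.46 for Slc25a4, 0.98 for Slc25a30, 0.97 for Slc25a5, 0.81 for Slc25a48, 0.80 for Slc25a44, 0.70 for Slc25a32 and 0.69 for Slc25a46. It moved up by 0.63 for Slc25a13, 0.60 for Slc25a16, 0.55 for Slc25a12, 0.52 for Slc25a3, 0.48 for Slc25a11, 0.46 for Slc25a29, 0.39 for Slc25a17 and 0.36 for Slc25a28. The change was negative for Slc25a38, at -0.25, and for Slc25a45, at -0.42. The median change of all genes was 0.34, and the macrophage markers of the libraries labelled LKO at CT42 to CT46 belong to the second day. Without these 6 libraries the difference moved up for 16 carriers and down for 2, against 47.0% and 8.78% of all genes, and 16 of these calls were shared in direction with the full set. The calls of Slc25a30 (0.53, limma adjusted p = 0.109) and Slc25a38 (-0.17, limma adjusted p = 0.129) were lost. The 24 h amplitude of Slc25a51 differed by 0.19 between genotypes.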

How the results depend on the processing

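The counts of carriers called were recomputed under other pseudocounts, filters, scalings, covariates and sets of libraries, and 103 recomputed counts stayed within 1.5 times of those reported, while 29 did not. The call of 1 carrier for a 24 h difference between genotypes became 0 with a pseudocount of 0.1, with the replicate block, with relative depth as a covariate, without LKO CT42 to CT46, and without those and the 2 libraries with muscle transcripts, and became 4 under median-ratio scaling, 4 under quantile normalization and 3 with Rn45s as a covariate. The letters do not pair the mice, and the replicate block moved no other count past 1.5 times. The 2 carriers with a 12 h rhythm in LKO became 4 under quantile normalization and 0 without LKO CT42 to CT46, with or without the muscle libraries. Higher calls became 5 at CT24 to CT46 alone and 5 at CT24 to CT40 alone, against 56.1% and 32.4% of all genes. Lower calls became 6 and 4, against 9.09% and 6.03% of all genes. Leaving out the libraries of 1 letter (44 with A, 48 with B, 4 with C) gave 1 to 3 higher calls, 8 to 16 lower calls, 1 to 10 rhythms of 24 h in Flox and 5 to 19 in LKO, 0 to 2 differences of 24 h, 0 of 12 h in Flox and 0 to 2 in LKO. Of all genes 21% to 39.4% were then called higher and 7.96% to 18.7% lower. Shares of all genes for the rhythm counts under these settings are not given here. Those changes therefore cannot be read as particular to the carriers, and leaving out letter A or B removes 44 or 48 libraries.

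Of the genotype calls of carriers given in full, those lost without letter A were Slc25a28 (0.21), Slc25a38 (0.09), Slc25a5 (-0.27) and Slc25a32 (-0.27), and those lost without letter B were Slc25a30 (-0.43), Slc25a15 (-0.32), Slc25a38 (0.13), Slc25a5 (-0.22) and Slc25a32 (-0.15). Single log2 differences that changed sign were Slc25a3 under median-ratio scaling (-0.07), Slc25a26 under quantile normalization (-0.09), and at CT0 to CT22 alone Slc25a29 (-0.22) and Slc25a3 (-0.25). At CT24 to CT46 alone these were Slc25a44 (0.12), Slc25a46 (0.10), Slc25a32 (0.14), Slc25a5 (0.24), Slc25a12 (0.24) and Slc25a38 (-0.01), and at CT24 to CT40 alone Slc25a44 (0.05), Slc25a13 (0.09), Slc25a5 (0.10) and Slc25a17 (0.03). The change between days turned under median-ratio scaling for Slc25a20 (-0.25), Slc25a28 (-0.01), Slc25a42 (-0.32) and Slc25a26 (-0.15), and under quantile normalization for Slc25a28 (-0.01), Slc25a42 (-0.27) and Slc25a26 (-0.25). The cause was not tested. Without absolute depth, small differences of low carriers such as Slc25a48 cannot be set against counting error.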
